A study of Mus musculus with 6 samples.

Results

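The S100 proteins are a family of small calcium-binding proteins encoded by separate genes, and 7 of them were followed in RNA-seq libraries of whole mouse fetuses: S100a1, S100a6, S100a10, S100a11, S100a13, S100a16 and S100g. The deposited table of 17741 rows names 11 S100 genes, out of 18 protein-coding S100 genes in the GRCm38.p6 gene table. The 7 members are those with a mean of at least 1 FPKM (fragments per kilobase of transcript, scaled to the mapped fragments of a library) over all libraries, a filter that 12141 genes passed. The family was selected on its difference between the 2 groups of these same libraries, so the members' differences are given as a description and carry no test. S100a13 lay closest above the filter, with a mean of 2.94 FPKM, and S100a4 closest below it, with 0.232 FPKM.

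Both groups were fetuses of the C57BL/6 strain taken at 9.0 dpc (days post coitum), 3 libraries labelled wild type (WT) and 3 labelled as overexpressing KLF12 (KLF12_OE), a zinc-finger transcription factor of the Krüppel-like family. The study asked how a high KLF12 level leads to neural tube defects, in which the embryonic neural tube fails to close. The promoter and cell types that drive the KLF12 gene are not given in the sources used here, nor is whether a library came from 1 fetus or from several, so the p-values below measure the spread between these libraries, which may be partly technical. In bulk RNA of whole fetuses, fewer cells of a type and less RNA per cell cannot be told apart.

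Most S100 proteins are dimers, S100g being a monomer, and each chain carries a pair of EF hands, helix-loop-helix motifs whose loop holds a calcium ion. Calcium binding opens a surface on the protein that docks to targets such as annexins, cytoskeletal proteins and enzymes, so most S100 proteins act as calcium sensors. S100a10 is an exception: its loops have lost calcium binding, it stays in the open form, and it forms a tetramer with annexin A2 at the inner face of membranes. S100g, also called calbindin-D9k, buffers and carries calcium in epithelia that transport it, such as gut, placenta and yolk sac.

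The overexpressed gene itself separated the groups. Klf12 (NCBI gene 16597) was listed at 1.99, 2.11 and 1.32 FPKM in WT libraries 1 to 3 and at 16.44, 15.15 and 23.94 FPKM in KLF12_OE libraries 1 to 3. Its log2 difference was 2.78 ± 0.22 (SE, n = 3 per group; limma adjusted p = 0.00113, exact two-sided permutation p = 0.1, the smallest that 3 against 3 allows). KLF12_OE library 3 stood apart from the others of its group: correlations of log2 values were 0.975 to 0.978 among WT libraries and 0.951 to 0.972 among KLF12_OE libraries. Transcripts of 4 Y-linked genes were listed at 0 in KLF12_OE libraries 1 and 2. They summed to 25.12 FPKM in KLF12_OE library 3 and to 6.8 to 16.23 FPKM in WT. The libraries thus differed in Y-linked transcripts within and between the groups. Any difference in fetal sex is partly confounded with group, and its part in the differences was not tested. Markers of the parts of a fetus at this stage were present, with heart genes summing to 916.1 to 1578 FPKM and neural tube genes to 80.77 to 198.6 FPKM in the 6 libraries, while genes of macrophages summed to at most 3.59 FPKM.

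The DNA before the start sites of the members is shown first, because 4 members lay lower in KLF12_OE and KLF factors bind GC-rich and CACCC-type boxes. The 250 bases upstream of each start site come from RefSeq on GRCm38.p6, where 6 of the 7 members matched, all but S100a10. Each sequence runs 5′ to 3′ on the strand of its gene, with capitals marking a match on either strand: CACCC or its complement GGGTG, the core of the GT box of KLF factors, and GGGCGG or its complement CCGCCC, the GC box of SP and KLF factors. No match of the other searched words, CAGTGGG and TATAAA, was found in the 5 windows shown. S100a11, S100a6 and S100a16 are shown as members that were lower in KLF12_OE, and S100a1 and S100g as members that were not.
S100a11 (chr3:93520246-93520495, plus strand): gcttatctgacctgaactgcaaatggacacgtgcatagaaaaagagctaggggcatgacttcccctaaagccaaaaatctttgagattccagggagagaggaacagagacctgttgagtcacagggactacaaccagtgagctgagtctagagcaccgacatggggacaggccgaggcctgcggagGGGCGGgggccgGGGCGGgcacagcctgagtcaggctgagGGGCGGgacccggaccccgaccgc
S100a6 (chr3:90612644-90612893, plus strand): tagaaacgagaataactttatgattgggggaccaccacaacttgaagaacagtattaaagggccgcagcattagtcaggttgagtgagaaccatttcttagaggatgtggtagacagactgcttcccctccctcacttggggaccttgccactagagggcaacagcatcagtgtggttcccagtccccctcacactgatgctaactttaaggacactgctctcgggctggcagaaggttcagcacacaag
S100a16 (chr3:90537004-90537253, plus strand, the first of 2 start sites): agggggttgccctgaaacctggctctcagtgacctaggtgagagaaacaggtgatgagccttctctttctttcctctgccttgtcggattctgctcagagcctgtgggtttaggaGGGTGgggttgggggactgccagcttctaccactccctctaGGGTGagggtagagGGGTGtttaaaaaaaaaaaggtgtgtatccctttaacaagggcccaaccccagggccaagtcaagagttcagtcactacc
S100a1 (chr3:90514331-90514580, minus strand): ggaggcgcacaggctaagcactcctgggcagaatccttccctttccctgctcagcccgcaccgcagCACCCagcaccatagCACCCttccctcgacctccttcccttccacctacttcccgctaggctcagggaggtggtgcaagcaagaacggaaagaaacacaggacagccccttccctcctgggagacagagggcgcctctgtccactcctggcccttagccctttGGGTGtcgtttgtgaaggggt
S100g (chrX:162964600-162964849, minus strand): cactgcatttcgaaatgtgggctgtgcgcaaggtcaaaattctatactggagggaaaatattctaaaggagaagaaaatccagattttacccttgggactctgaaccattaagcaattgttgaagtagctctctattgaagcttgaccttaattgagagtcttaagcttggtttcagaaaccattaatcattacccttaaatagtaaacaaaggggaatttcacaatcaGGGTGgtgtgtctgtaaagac

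The searched words differed between the windows of the lower members. The S100a11 window held 3 GGGCGG matches, which begin 64, 52 and 24 bases before the start site, and no CACCC. The S100a6 window held no match at all. The S100a16 window shown held 3 CACCC matches, 135, 94 and 80 bases before the start site. The window of its second start site, not printed, held 2 CACCC matches, 114 and 82 bases before that site, and 1 GGGCGG match at 30 bases, a word also found in S100a11. Among the members that were not lower, S100a1 had 3 CACCC matches, S100a13 had 2 and S100g had 1. CACCC was present in 52% of 32851 RefSeq windows of the same length, GGGCGG in 32.7%, CAGTGGG in 5.98% and TATAAA in 12.4%. The GC content ran from 38.4% in S100g to 61.6% in S100a1, around a median of 52.4% over all windows. The start sites that the promoter table gives for S100a1 and S100a13 face away from each other on opposite strands with 104 bases between them, and their windows share those 104 bases. The CACCC match 21 bases before the S100a1 start site and the one 88 bases before the S100a13 start site are the same letters in that shared stretch. Such a match is a description of letters in a window and says nothing of a bound factor.

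In WT fetuses the family's transcripts came mostly from a pair of genes. The 7 members together summed to 312.2, 290.2 and 297.6 FPKM in WT libraries 1 to 3, of which S100a11 made up 47.8% ± 1.32 and S100a10 38.2% ± 2.91 (SD, n = 3). S100a11 was highest in every WT library and S100a10 came next, without overlap between them or with the members below. S100g, S100a16, S100a6 and S100a1 followed, each overlapping with the next in that order, and S100a13 was lowest, below S100a1 in every library value.

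In KLF12_OE fetuses the summed level of the members was 91.5 ± 18.2 FPKM, with 94.38, 108.0 and 72.01 FPKM in libraries 1 to 3, all far below the WT sums. Most of that gap lay in S100a10 and S100a11, which together made up 86.0% ± 2.0 of the summed level in WT and 65.6% ± 2.43 in KLF12_OE. S100a11 remained highest, without overlap with the next member, S100g. S100g, S100a10, S100a1 and S100a16 then overlapped, each with the next, and S100a13 and S100a6 came last. S100g made up 15.7% ± 2.26 of the summed level in KLF12_OE and 4.44% ± 2.64 in WT, with overlapping FPKM values of its own in the 2 groups.

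**Figure D1:**
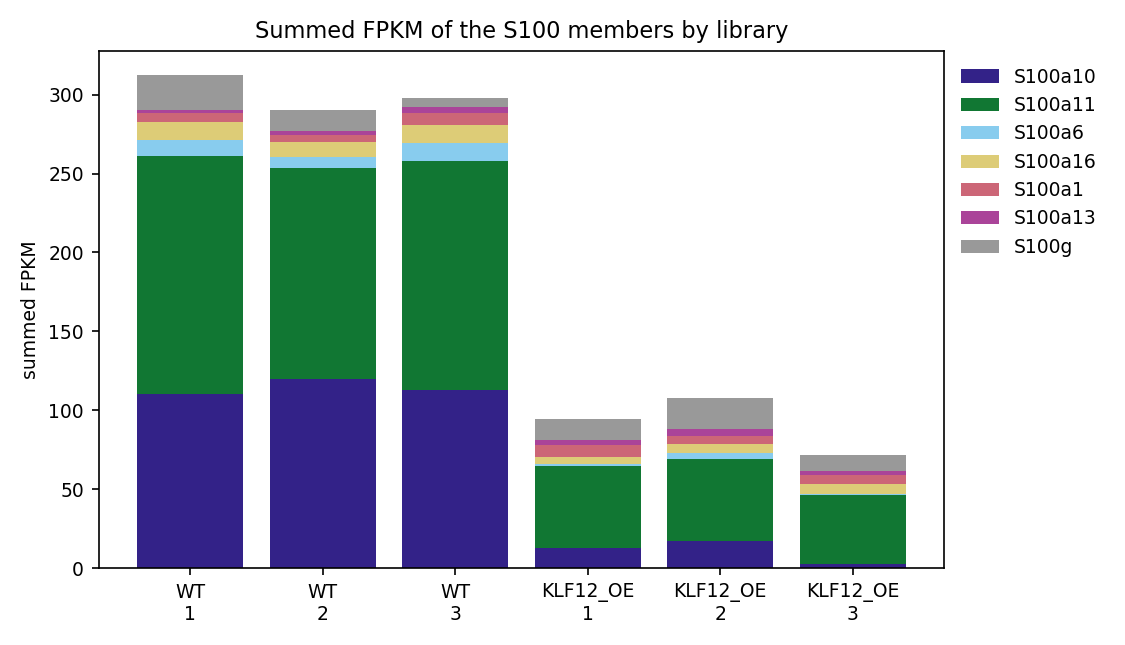
Stacked bars give the FPKM of the 7 S100 members in each of the 3 WT and 3 KLF12_OE libraries (vertical axis, summed FPKM). The WT bars reach 290.2 to 312.2 FPKM and the KLF12_OE bars 72.01 to 108.0 FPKM, and the S100a10 and S100a11 segments are the ones that shrink most.

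S100a10, the annexin A2 partner also known as p11, showed the most negative log2 difference of all 12141 genes. Its values were 110.45, 119.55 and 112.89 FPKM in WT libraries 1 to 3 and 12.97, 17.34 and 2.59 FPKM in KLF12_OE libraries 1 to 3. The groups were far apart, with the lowest WT value 6.37 times the highest KLF12_OE value. The means were 114.3 ± 4.71 and 10.97 ± 7.58 FPKM (SD, n = 3 each), a KLF12_OE level of 9.60% of WT. On the log2(FPKM + 1) scale the difference was -3.57 ± 0.49 (SE). The WT libraries spanned only 0.113 on that scale and the KLF12_OE libraries 2.35, because library 3 was much lower than libraries 1 and 2. Without KLF12_OE library 3 the difference was -2.85.

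S100a11, also called calgizzarin, binds annexins A1, A2 and A6 and takes part in membrane repair and in the growth control of epithelial cells. It was listed at 150.84, 134.21 and 145.13 FPKM in WT and at 51.6, 52.03 and 43.66 FPKM in KLF12_OE. The libraries were tight within both groups, which did not overlap. The means of 143.4 ± 8.45 and 49.1 ± 4.71 FPKM (SD, n = 3 each) put KLF12_OE at 34.2% of WT, a log2 difference of -1.53 ± 0.12 (SE). The mouse genome holds a processed pseudogene of S100a11, so fragments from near-identical sequence could be shared in the counting.

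S100a6, or calcyclin, is linked to proliferating cells and epithelia and binds annexin A11 and the ubiquitin ligase adaptor Cacybp. It was listed at 9.99, 6.65 and 11.47 FPKM in WT and at 1.43, 3.35 and 0.93 FPKM in KLF12_OE. All KLF12_OE values lay below all WT values, with library 2 the lowest of WT and the highest of KLF12_OE. The means were 9.37 ± 2.47 and 1.90 ± 1.28 FPKM (SD, n = 3 each) and the log2 difference was -1.89 ± 0.32 (SE). Its lowest value corresponds to an estimated 9 fragments, so the level in that library is imprecise.

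S100a16, a widely expressed member with a role in adipogenesis, differed least among the 4 lower ones. Its values were 11.52, 9.83 and 11.43 FPKM in WT and 4.45, 6.15 and 6.06 FPKM in KLF12_OE. The groups did not overlap, and the lowest WT value was 1.598 times the highest KLF12_OE value. The means of 10.9 ± 0.951 and 5.55 ± 0.957 FPKM (SD, n = 3 each) gave a log2 difference of -0.87 ± 0.18 (SE).

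The other 3 members overlapped between the groups. S100a1, the S100 protein of heart and skeletal muscle that acts on the ryanodine receptor and the calcium pump of the sarcoplasmic reticulum, was listed at 5.66, 4.3 and 7.3 FPKM in WT and at 7.88, 5.11 and 5.93 FPKM in KLF12_OE. Its highest and lowest values fell in different groups, and the log2 difference was 0.12 ± 0.23 (SE). S100a13, which takes part in the release of FGF1 from cells without a signal peptide, was listed at 1.8, 2.46 and 4.15 FPKM in WT and at 2.61, 4.31 and 2.34 FPKM in KLF12_OE. Its log2 difference was 0.12 ± 0.29 (SE), with a library from each group above 4 FPKM. The gene table's full span of S100a13 begins ahead of the start site described above and overlaps that of S100a1 on the other strand by 98 bases. Because of this overlap, and because the strand of the counting is not given in the sources used here, some fragments of the pair may not be fully told apart.

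S100g was the most variable member among WT fetuses. It was listed at 21.94, 13.16 and 5.22 FPKM in WT libraries 1 to 3 and at 13.44, 19.73 and 10.5 FPKM in KLF12_OE libraries 1 to 3. The KLF12_OE values lay within the WT range, and the log2 difference was 0.26 ± 0.42 (SE). Genes of visceral endoderm and yolk sac, tissues that express S100g, varied in the same order within WT, with summed levels of 450.5, 159.9 and 72.61 FPKM in WT libraries 1 to 3 and 358.2, 498.4 and 330.3 FPKM in KLF12_OE. All 17 genes of that list were tested and 0 were called in limma. An unadjusted p under 0.05 was found for 9 of them, a cut for which no share over all genes is given. All 17 had a positive difference, with a median of 1.13. The part of yolk sac RNA in the S100g values was not tested.

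**Figure D2:**
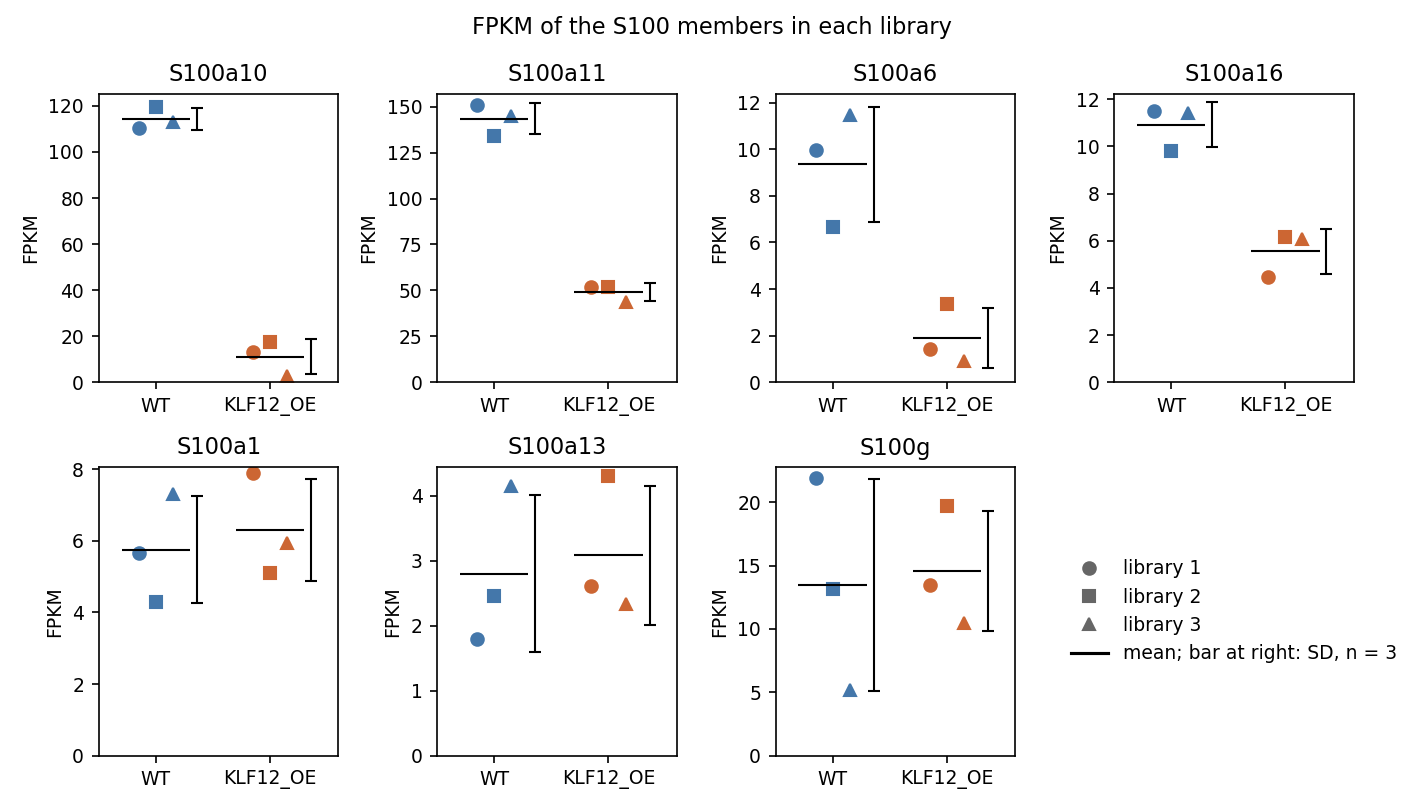
Each panel gives the FPKM of 1 S100 member (vertical axis from 0, its own scale per gene) in the 3 WT and 3 KLF12_OE libraries, with a symbol per library, a line at the mean and an SD bar. The groups are apart for S100a10, S100a11, S100a6 and S100a16 and overlap for S100a1, S100a13 and S100g.

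The 4 other S100 genes of the table stayed under the filter. S100b, the astrocyte and Schwann cell member, was listed at up to 0.15 FPKM in the 6 libraries, and S100a3 at up to 0.43 FPKM, in WT only. S100a8, a protein of neutrophils and macrophages, was listed at 1.32 FPKM in WT library 1 and at 0 in the other 5. S100a4, a member of motile fibroblasts and leukocytes, reached 0.48 FPKM in WT and 0.59 FPKM in KLF12_OE. These values stand for an estimated 0 to 11 fragments and allow no comparison.

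Against all genes, the 3 members called lower at a limma adjusted p under 0.05 (S100a6, S100a10 and S100a11) stand beside 0.634% of 12141 genes called lower and 0.0988% called higher. The 4 members with all KLF12_OE values below all WT values stand beside 8.98% of all genes with that order. The members were chosen on this contrast, so nothing is read from these counts. By log2 difference S100a10, S100a6, S100a11 and S100a16 held places 1, 21, 50 and 268 from the most negative gene, while the median over all genes was -0.0157.

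**Figure D3:**
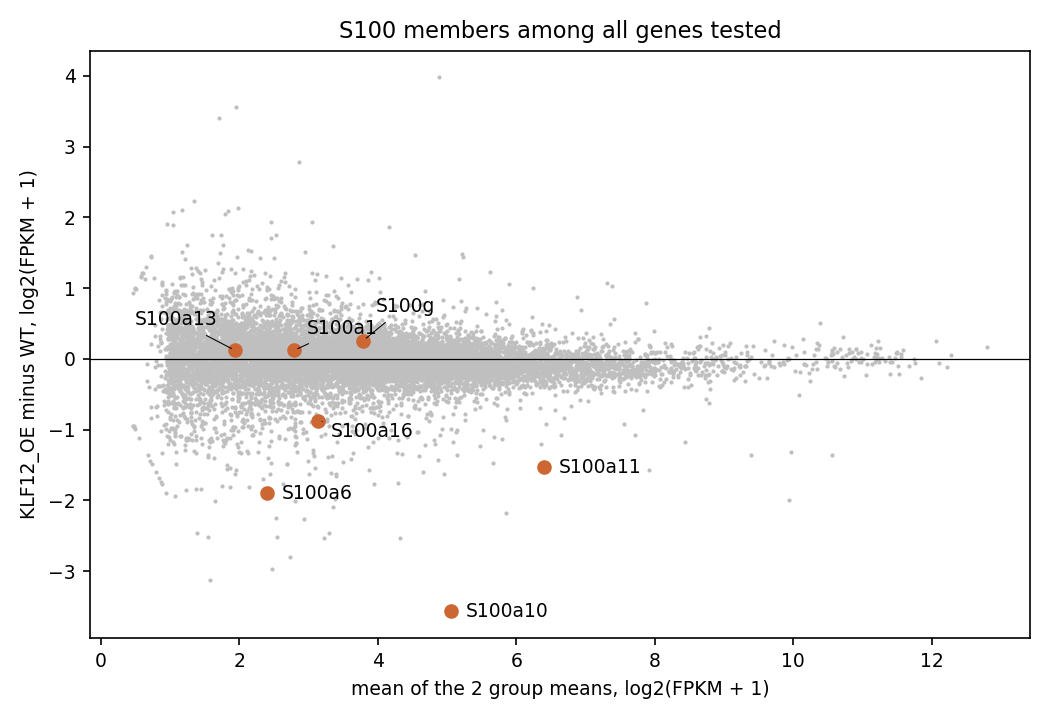
Each grey point is 1 of 12141 genes and the orange points are the 7 S100 members, with the mean log2(FPKM + 1) of the groups on the horizontal axis and the KLF12_OE minus WT difference on the vertical axis. S100a10 lies lowest of all points at -3.57, while S100a1, S100a13 and S100g lie within the grey band near 0.

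The annexins, the main partners of S100 proteins, were lower as well. These proteins bind membrane phospholipid in the presence of calcium. Of 11 listed annexins 8 were tested. In limma 5 were called lower (Anxa2, Anxa5, Anxa6, Anxa7 and Anxa11) and 0 were called higher. All 8 had a negative difference, with a median of -1.52 against -0.0157 over all genes. Beside this, 0.634% of all genes tested were called lower. Anxa6, a partner of S100a11, fell from 47.0 ± 2.06 to 7.41 ± 1.51 FPKM (SD, n = 3 each), a log2 difference of -2.53 ± 0.16 (limma adjusted p = 0.000606). Anxa5 and Anxa7 fell by 1.63 and 1.66 on the log2 scale (limma adjusted p = 0.00214 and 0.00404, the latter 0.0549 without WT library 3). Anxa11, a partner of S100a6, fell from 5.69 ± 0.270 to 1.28 ± 0.529 FPKM (limma adjusted p = 0.0190, between 0.0621 and 0.140 without any 1 of the libraries WT 1, WT 2, WT 3, KLF12_OE 1 or KLF12_OE 2). Anxa1, at 1.66 ± 0.293 and 0.690 ± 0.460 FPKM, was not called (limma adjusted p = 0.430).

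Anxa2, which binds S100a10 in the tetramer, fell, by a smaller log2 difference than that of S100a10. It was listed at 75.13, 89.26 and 87.41 FPKM in WT and at 45.39, 28.24 and 20.09 FPKM in KLF12_OE, a log2 difference of -1.47 ± 0.25 (SE). The limma adjusted p was 0.0371, and it rose above 0.05 in 9 of 19 alternatives, reaching 0.103, 0.201 and 0.209 without WT library 1, 2 or 3 and 0.104 without KLF12_OE library 2. S100a10 transcript per Anxa2 transcript was 1.47, 1.34 and 1.29 in WT and 0.286, 0.614 and 0.129 in KLF12_OE. In WT the S100a10 level thus exceeded that of its partner in every library, and in KLF12_OE it was lower in every library. S100a11 per Anxa2 was 1.72 ± 0.258 in WT and 1.72 ± 0.529 in KLF12_OE, and S100a11 per Anxa6 was 3.05 ± 0.152 and 6.73 ± 0.871 (SD, n = 3 each). S100a10 per S100a11 was 0.8 ± 0.0816 in WT and 0.215 ± 0.141 in KLF12_OE. The members were chosen on this contrast, so these ratios rest on the same differences and carry no test.

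The other binding partners were called less often than the annexins. Of 18 tested partner genes 1 was called lower (Iqgap1), 0 were called higher, and the median difference was -0.0951. Beside this, 0.634% of all genes tested were called lower, and their median was -0.0157. Iqgap1, a cortical scaffold that binds actin and several S100 proteins, fell from 20.1 ± 0.726 to 4.04 ± 1.11 FPKM (limma adjusted p = 0.00214). Cacybp, the calcyclin binding protein, had 172.3 ± 1.18 FPKM in WT, had 146.6 ± 27.3 FPKM in KLF12_OE and was not called (limma adjusted p = 0.603, between 0.0346 and 0.947 over the alternatives). S100a6 per Cacybp was 0.0544 ± 0.0145 in WT and 0.0123 ± 0.00604 in KLF12_OE. S100a6 was chosen on this contrast, so the ratio mostly restates its difference and carries no test. Ahnak, a giant scaffold that docks to the S100a10 and annexin A2 tetramer, was at 17.3 ± 3.53 and 8.50 ± 4.16 FPKM (limma adjusted p = 0.267).

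**Figure D4:**
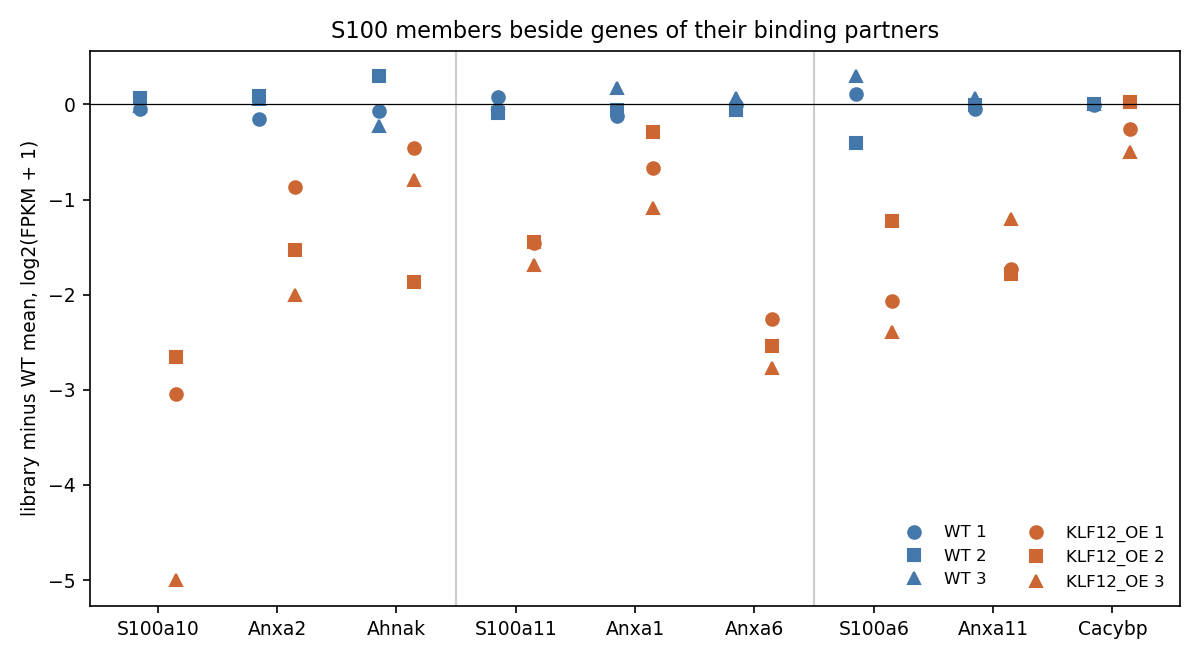
For S100a10, S100a11 and S100a6, each followed by genes of its binding partners, the points give each library's log2(FPKM + 1) minus the WT mean of that gene (vertical axis). The KLF12_OE points of S100a10 reach from -2.65 to -5.004, lower than those of Anxa2 and Ahnak beside it, while 1 Cacybp point of KLF12_OE lies above 0.

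Genes tied to S100 functions were counted beside the same 0.634% of all genes tested called lower and 0.0988% called higher. Those shares are of calls at the adjusted p. No share over all genes is given for the counts at an unadjusted p. S100a10 presents plasminogen and its activator at the cell surface, and of 6 tested genes of the plasminogen system 0 were called in limma, with 2 under an unadjusted p of 0.05: Serpine2 at -0.42 and Serpinf2 at 0.91 on the log2 scale (adjusted p = 0.338 and 0.433). Of 4 tested genes of calbindins and epithelial calcium transport, the setting of S100g, 0 were called in limma and 3 had an unadjusted p under 0.05. The smallest were those of the sodium-calcium exchanger Slc8a1, at 0.83 on the log2 scale, and the parathyroid hormone receptor Pth1r, at -0.42 (limma adjusted p = 0.316 and 0.373). Calb1, Calb2, Trpv6 and Vdr were under 1 FPKM in all 6 libraries. Among 39 tested EF-hand proteins outside the family 1 was called lower, the calpain subunit Capn2. It fell from 34.9 ± 0.672 to 20.0 ± 2.31 FPKM (limma adjusted p = 0.0371). That call was lost in 10 of 19 alternatives, with an adjusted p of 0.0652 to 0.219 without any 1 library other than KLF12_OE library 3. Their median difference was -0.134, with 27 negative and 12 positive. The fused-type relatives Flg, Flg2 and Tchh, skin genes with S100 domains, were under 1 FPKM in all libraries.

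Of the marker lists, those of primitive erythroid cells, yolk sac and epithelium had the medians farthest from 0. Over all genes tested 0.634% were called lower and 52.7% had a negative difference. For counts at an unadjusted p under 0.05 the share over all genes is not given, so no excess is read from them. All 21 genes of surface ectoderm and epithelium had a negative difference (median -0.653), and 14 had an unadjusted limma p under 0.05. At the adjusted p, 4 of the 21 were called lower: Krt7, Cldn3, Sfn and Perp. The summed level of the epithelial list was 897.6, 959.1 and 910.8 FPKM in WT and 810.6, 605.8 and 493.9 FPKM in KLF12_OE libraries 1 to 3. It was lowest in KLF12_OE library 3, where S100a10, S100a11 and S100a6 were lowest. The sums of the heart and notochord genes were lowest there too, at 916.1 and 306.8 FPKM. So was the sum over all genes, at 528236 FPKM against 598031 to 635381 FPKM in the other libraries. By contrast, the sum of the neural tube genes was highest there, at 198.6 FPKM against 80.77 to 104.0 FPKM in the other libraries. S100a16 was instead lowest in KLF12_OE library 1, at 4.45 FPKM, where the epithelial sum was the highest of that group. Sfn, an epithelial 14-3-3 protein, fell from 15.9 ± 2.19 to 2.61 ± 1.11 FPKM (limma adjusted p = 0.00404), and Krt7, a simple epithelial keratin, from 38.1 ± 3.79 to 15.9 ± 2.25 FPKM (limma adjusted p = 0.00907). Of 12 mesenchyme genes 1 was called lower, Vim, which fell from 304.4 ± 9.92 to 145.5 ± 27.0 FPKM (limma adjusted p = 0.0158). The list's median was -0.179, and 4 of its genes had an unadjusted limma p under 0.05. The summed level of the mesenchyme genes was 839.3 to 927.8 FPKM in WT and 652.8, 471.8 and 737.8 FPKM in KLF12_OE libraries 1 to 3. All KLF12_OE sums were thus below WT, and within KLF12_OE the highest was in library 3, where S100a10, S100a11 and S100a6 were lowest. Over the alternatives the calls of Krt7, Cldn3, Perp, Vim and Sfn were lost in 3, 5, 10, 5 and 1 of 19 (18 for Cldn3). The first 4 were lost without any 1 of the WT libraries, those of Cldn3 and Perp also without KLF12_OE library 2, that of Perp without KLF12_OE library 1, and that of Sfn without WT library 3 (adjusted p = 0.0542). Primitive erythroid genes, with a median of -1.31, 11 of 11 negative and 0 called in limma (10 with an unadjusted p under 0.05), summed to 5130 to 11700 FPKM in WT and 1337 to 4265 FPKM in KLF12_OE. The part of these cell types in the S100 differences was not tested.

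Heart genes were lower in part. Of 11 heart genes 5 had an unadjusted limma p under 0.05, again without a share over all genes, and the list median was -0.371. Beside 0.634% of all genes tested called lower, 3 heart genes were called lower: Myl3, Myh7 and Myl2. They fell by 1.10, 0.86 and 0.92 on the log2 scale (limma adjusted p = 0.0125, 0.0321 and 0.0359). Each of those calls was lost without any 1 of the WT libraries, those of Myh7 and Myl2 also without KLF12_OE library 1 and that of Myh7 without KLF12_OE library 2. Over all 19 alternatives the calls of Myl3, Myh7 and Myl2 were lost in 3, 10 and 8. S100a1, the heart member, overlapped between the groups. Among 11 neural tube, 11 endothelial, 7 notochord, 7 trophoblast and 7 decidual genes, 0 were called in limma, with medians of 0.107, 0.269, -0.265, -0.0543 and -0.149 respectively. An unadjusted p under 0.05 was reached by 1 neural tube, 1 endothelial and 4 notochord genes, a list that shares Krt8, Krt18 and Krt19 with surface ectoderm.

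Members were also compared by the shape of their 6 values, each log2 profile centred on its own mean, with the root mean square difference over the 6 libraries as the measure among 11755 named genes. The nearest to S100a11 were Anxa5 (0.0913) and Mogat2 (0.13). Nearest to S100a10 were Tspo (0.568), an outer mitochondrial membrane protein, and Anxa6 (0.817). Tspo was listed at 22.33, 19.65 and 22.91 FPKM in WT and at 5.24, 4.41 and 0.74 FPKM in KLF12_OE, so it too was lowest in KLF12_OE library 3. Gap43 (0.207) and Sfn (0.234) were nearest to S100a6, and Tagln2 (0.0802) and Mybpc3 (0.0962) to S100a16. S100g was nearest to Rln3 (0.162) and to Fkbp11 (0.187), which was listed at 26.34, 19.1 and 10.47 FPKM in WT and at 21.17, 28.56 and 15.31 FPKM in KLF12_OE. S100a1 lay nearest to Cebpd (0.0612) and Mrm1 (0.0638), and S100a13 to Oip5 (0.0907) and Wdr20 (0.114). Among the members themselves the closest pair was S100a11 and S100a16 (0.375), followed by S100a6 with S100a11 (0.386) and S100a1 with S100a13 (0.388), while S100a10 stood 0.996 from S100a6. Many other genes lay closer: S100a16 held place 115 among the genes nearest to S100a11, and S100a11 place 1559 among those nearest to S100a16. Genes that both differ between the groups come out close by this measure whatever else they share.

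All members but S100g, which is on chromosome X, lie on chromosome 3, and lower and not lower members are neighbours there. S100a1, S100a13, S100a16 and S100a6 lie in 1 run of S100 genes, with S100a11 and S100a10 farther along the chromosome. The nearest tested genes outside the family were not called. On the sides of the run, Chtop averaged 110.7 ± 3.21 FPKM in WT and 105.1 ± 2.62 FPKM in KLF12_OE (limma adjusted p = 0.883), and Pglyrp4 at 1.59 ± 0.306 and 2.20 ± 1.48 FPKM (limma adjusted p = 0.887). For S100a11 and S100a10 the nearest tested genes are not adjacent: Them4 lies 9 and 8 coding genes away on one side, and Lor 50 and 51 on the other. Them4 averaged 2.997 ± 0.183 FPKM in WT and 1.51 ± 0.658 FPKM in KLF12_OE, with a log2 difference of -0.71 (limma adjusted p = 0.359), and Lor at -0.05 (limma adjusted p = 0.976). Of the nearest tested genes around S100g, Ctps2 is adjacent and Ap1s2 has 2 coding genes in between. Ctps2 and Ap1s2 had differences of -0.28 and 0.05 (limma adjusted p = 0.598 and 0.959).

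The differences of the 4 lower members kept their sign in all 19 alternatives run, from -5.004 to -2.85 for S100a10, -1.69 to -1.45 for S100a11, -2.40 to -1.64 for S100a6 and -1.04 to -0.74 for S100a16. The lowest values of the first 3 are those of the 4 libraries with Y-linked transcripts, where KLF12_OE library 3 stands alone for its group. The groups did not overlap for these 4 members, so leaving out libraries could not change the sign. The filter, the variance trend, the replicate block and the p threshold leave the difference itself unchanged. The kept sign is therefore a description and no test of the differences. S100a1, S100a13 and S100g ranged from -0.04 to 0.36, from -0.14 to 0.36 and from -0.26 to 0.69, with either sign.

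**Figure D5:**
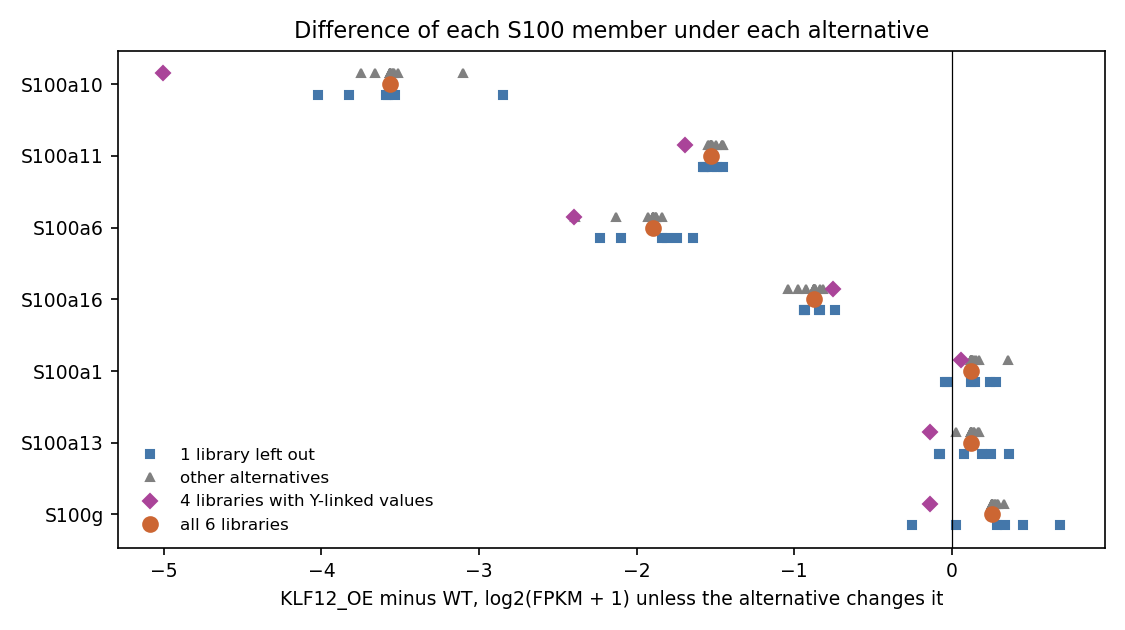
For each S100 member (rows) the points give the KLF12_OE minus WT log2 difference (horizontal axis) over all 6 libraries, with 1 library left out, in the 4 libraries with Y-linked values, and under the other alternatives. S100a10, S100a11, S100a6 and S100a16 stay left of 0 at every point, and the other 3 members lie on both sides of 0.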

How the data were processed

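RNA was extracted from 9.0 dpc fetuses with Trizol, per the labels' protocols. The authors deposited 1 table of FPKM values with 2 decimals for the 6 libraries. Per the submitters' processing notes, the build was mm9 and the tools named, with no role or order, were RSEM 1.2.8, HISAT2 2.0.4 and CASAVA. NCBI gene numbers matched a symbol in the RefSeq GRCm38.p6 gene table for 16874 of 17741 rows, while 777 rows were named BGI_novel and 90 had no symbol.

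FPKM is no count, so limma 3.58.1 (R 4.3.3) was run on log2(FPKM + 1) with a variance trend. It covered the 12141 genes whose mean reached 1 FPKM. Genes were called at a Benjamini-Hochberg adjusted p under 0.05 over all of them. All log2 differences are of log2(FPKM + 1), so those of low genes are understated. Promoter windows came from RefSeq on GRCm38.p6, and transcript lengths from GENCODE. FPKM summed to 528236 to 635381 per library. Steps in the low values give a rough depth of 14300000 to 17000000 fragments, which was used only for the fragment estimates, and whole reads were not recovered.

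The members, gene lists, markers and tests were chosen with earlier results of these data known. Genes were named by a rule: every S100 gene in the table, Klf12, up to 4 called genes of a list or else the 2 with the smallest p, Anxa1, Anxa2, Anxa6, Anxa11, Ahnak and Cacybp, the 2 nearest profiles of each member and its nearest tested neighbours outside the family. The fit was tested on simulated data. The alternatives changed the filter, the pseudocount, the scaling between libraries or the variance model, or used array weights, a replicate block, each library left out and the 4 libraries with Y-linked values.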

Additional observations from a re-analysis of the deposited data

How the results depend on the processing

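Klf12 and the called annexin, partner, EF-hand and marker genes named in the report kept their direction under each alternative that could be fitted for them (18 or 19). Their groups did not overlap, so leaving out libraries could not change that direction. Over all genes, 89 were called (12 higher, 77 lower), against 29 without a filter (4 higher, 25 lower), 1585 with array weights (560 higher, 1025 lower), 173 at an adjusted p under 0.1 (27 higher, 146 lower) and 837 when fitted on just the 4 libraries with Y-linked transcripts (285 higher, 552 lower). In that last set the lone KLF12_OE library is assumed to vary like WT. With 1 library left out the number was 14 to 319: 25, 19 and 14 without WT library 1, 2 or 3, and 45, 53 and 319 without KLF12_OE library 1, 2 or 3. Of the S100 members 3 were called lower, against 1 without a filter and 1 to 4 with 1 library left out (1 without any 1 of the WT libraries, 4 without KLF12_OE library 3). The 5 called annexins became 3 without a filter and 2 to 5 with 1 library left out, with 3, 3 and 2 without WT library 1, 2 or 3 and 3 without KLF12_OE library 2. The other binding partners went from 1 to 2 with array weights and 4 in those 4 libraries. The plasminogen genes and the calcium transport genes each went from 0 to 2 with array weights. The EF-hand genes outside the family went from 1 to 0 without a filter, as TPM, after quantile normalization, with no variance trend and with the replicate block. They went to 8 with array weights, 5 in those 4 libraries and 0 to 3 with 1 library left out. The cause of these shifts was not tested.

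After the mean of its group was subtracted from each library, same-numbered libraries of the 2 groups correlated by 0.027, -0.107 and 0.036. These values show no pairing by number, but with 3 libraries per group they cannot exclude one. The replicate block gave 64 called genes, with 2 S100 members called lower, and ended the calls of Anxa2 (adjusted p = 0.0507), Capn2 (0.0921), Perp (0.101), Myh7 (0.0653) and Myl2 (0.0537), and of no other named gene in the called lists. The scaling alternatives moved the median over all genes from -0.0157 to at most 0.0179. Depth limits the members with few fragments: S100a6, S100a10 and S100a13 had an estimated 9, 25 and 22 fragments in their lowest library, and FPKM values carry no counting interval.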
